A study of Mus musculus with 8 samples.

Results

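The tumour suppressor p53, its regulators and a set of its target genes were followed in sorted myeloid cells: 33 named genes, of which 31 were measured among 18193 genes in all. Each gene was read from its brightest probe set (a set of short probes against 1 transcript) that carries a single gene symbol, where brightest means the highest mean over all 8 arrays. Trp53 and Bax were not analysed here. The genes were divided by role into 4 measured regulators, 16 genes of arrest, repair and other target functions, and 11 genes of cell death.

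RNA came from bone marrow cells positive for Cd11b (the integrin subunit Itgam of granulocytes and monocytes), isolated by FACS from mice aged 8 weeks. The 4 experimental samples had the genotype Mxcre;E2F1-/-2-/-3f/f, that is, the Mx-Cre transgene, no E2f1, no E2f2 and floxed E2f3. The 4 control samples were E2F1-/-2+/+3f/f, lacking E2f1 as well and carrying floxed E2f3, with E2f2 intact and no Cre. All mice were of a mixed FVB and C57BL6 background and had been given polyinosine-polycytidine (pIpC), which triggers an interferon response, in 5 injections of 250 µg on alternate days, with tissue taken 24 h after the last. The Mx promoter responds to interferon in many cell types and is not particular to myeloid cells; recombination was not measured here. Cre, the E2f2 alleles and floxed E2f3 with Cre all differ at once between the groups, and their effects cannot be told apart. The labels do not say that each sample was a separate animal, so the p-values refer to the spread among samples, part of which could be technical.

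p53 is a transcription factor whose protein is kept scarce by Mdm2, a ubiquitin ligase, and by its relative Mdm4. After DNA damage or other stress p53 escapes this control and switches on genes that stop the cell cycle, repair DNA or start apoptosis. Several of its targets, Mdm2 and the phosphatase gene Ppm1d among them, feed back on p53. In blood cells the pathway is best known for removing damaged progenitors, through BH3-only genes such as Bbc3 (Puma) and Pmaip1 (Noxa). An array reads transcript levels and does not measure p53 protein or its activity.

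All levels are log2 values, and a difference is experimental minus control. E2f2, whose alleles differ between the groups, averaged 9.31 in experimental samples and 9.85 in controls at its brightest probe set (difference -0.55 ± 0.16, moderated SE, adjusted p = 0.107), without overlap. At its other probe set it read 7.06, 7.40, 7.11 and 7.47 in experimental samples, against 7.91, 7.82, 7.76 and 8.19 in controls (-0.66 ± 0.13, adjusted p = 0.0351). The floxed E2f3 read 7.88 ± 0.15 in experimental samples and 7.60 ± 0.11 in controls (SD, n = 4 each, limma adjusted p = 0.201), so no loss of its signal was seen. The position of the probes against the deleted exons was not analysed here. Array medians lay between 5.01 and 5.04. Itgam, the sorted antigen, read 11.54 in experimental samples and 11.58 in controls. Of the 13 measured granulocyte markers the dimmest, Cxcr2, read 10.27 in experimental samples and 10.70 in controls.

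The 250 bases before the transcription starts of these genes are shown first, because p53 acts on its targets through a paired DNA element. Promoters from the RefSeq table for GRCm38.p6 were found for 24 of the 31 measured genes (34 start sites); Perp, Pmaip1, Rrm2b, Tnfrsf10b, Trp53inp1, Xpc and Zmat3 had no entry used here. Each window was searched for the p53 response element, 2 copies of a 10-base site with at most 13 bases between them, which reads the same on both strands. A match was allowed up to 2 mismatches over the 20 bases, with the central C and G of each site kept. Of the members' windows 4 matched (11.8%), against 3.34% of all 32851 windows in the table. Capitals mark the 2 copies in the lines that follow, which are written 5′ to 3′ on the strand of the gene.
Ccng1, chr11:40755442-40755501, minus strand, 1 mismatch, first base 195 before the start: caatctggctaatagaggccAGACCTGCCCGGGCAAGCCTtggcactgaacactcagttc
Gadd45a, chr6:67037418-67037483, minus strand, 2 mismatches, first base 56 before the start: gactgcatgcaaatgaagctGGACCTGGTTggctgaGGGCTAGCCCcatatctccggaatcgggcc
Sesn1, chr10:41887233-41887295, plus strand, 2 mismatches, first base 186 before the start: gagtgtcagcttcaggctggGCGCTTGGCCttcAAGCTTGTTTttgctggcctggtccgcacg
Trp73, chr4:154097200-154097259, minus strand, 2 mismatches, first base 66 before the start: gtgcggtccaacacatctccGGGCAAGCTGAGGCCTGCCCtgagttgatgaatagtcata

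With up to 3 mismatches 11 of the 34 windows match (32.4%), beside 4258 of all 32851. Those added hold Bbc3, which rose, Pltp, which fell, and Aen, Ddit4l, Mdm4 and Plk3, which were not called. The best match had 4 mismatches in Polk and 5 in Phlda3, which rose, and 5 in Fas, which fell. Ccng1, whose match is the closest, also rose, while Gadd45a, Sesn1 and Trp73 did not pass the test in either direction. The E2F site, searched as TTTCCCGC, TTTGGCGC, TTTGCCGC or TTTCGCGC on both strands, was in none of the 34 windows and in 1.86% of all windows. With a share that low, the absence of the E2F site from 34 windows does not set these genes apart. A match describes letters in a window and says nothing of binding, and elements outside the window were not searched.

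Of the 31 genes, 5 rose and 2 fell in the experimental samples, each with a limma adjusted p under 0.05 over all 45037 probe sets. Those that rose were the cell death genes Perp, Phlda3 and Bbc3 and the arrest and repair genes Ccng1 and Polk, by 1.79-fold to 4.57-fold. The death receptor gene Fas and the lipid transfer gene Pltp fell. Over all 18193 genes 3.47% were called, 1.53% higher and 1.95% lower, beside 22.6% of these 31. The genes had been chosen with earlier results of these data known, so this share is a description. The median difference was 0.06, beside 0.01 over all genes.

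Counted by role, called or not, the signs ran as follows, and differences between roles were not tested. In the death group 10 of 11 differences were above 0 and the median was 0.50. Among the 16 arrest, repair and other targets 6 were above 0 and the median was -0.09. Of the 4 regulators 1 was above 0, and the median was -0.07. Over all genes 52.9% of differences were above 0. The summed signal of the death genes was 11.88 to 12.09 in experimental arrays and 11.35 to 11.64 in control arrays, without overlap. For the arrest and repair genes it was 12.11 to 12.67 in experimental arrays and 12.32 to 12.57 in controls, and for the regulators 10.59 to 10.79 in experimental arrays and 10.56 to 10.75 in controls, both overlapping. A sum of linear signal is weighted to the brightest genes. In the death group these were Trp53inp1 (mean 11.15 in experimental and 10.78 in control arrays) and Ei24 (9.57 and 9.29). Neither gene passed the test.

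**Figure D1:**
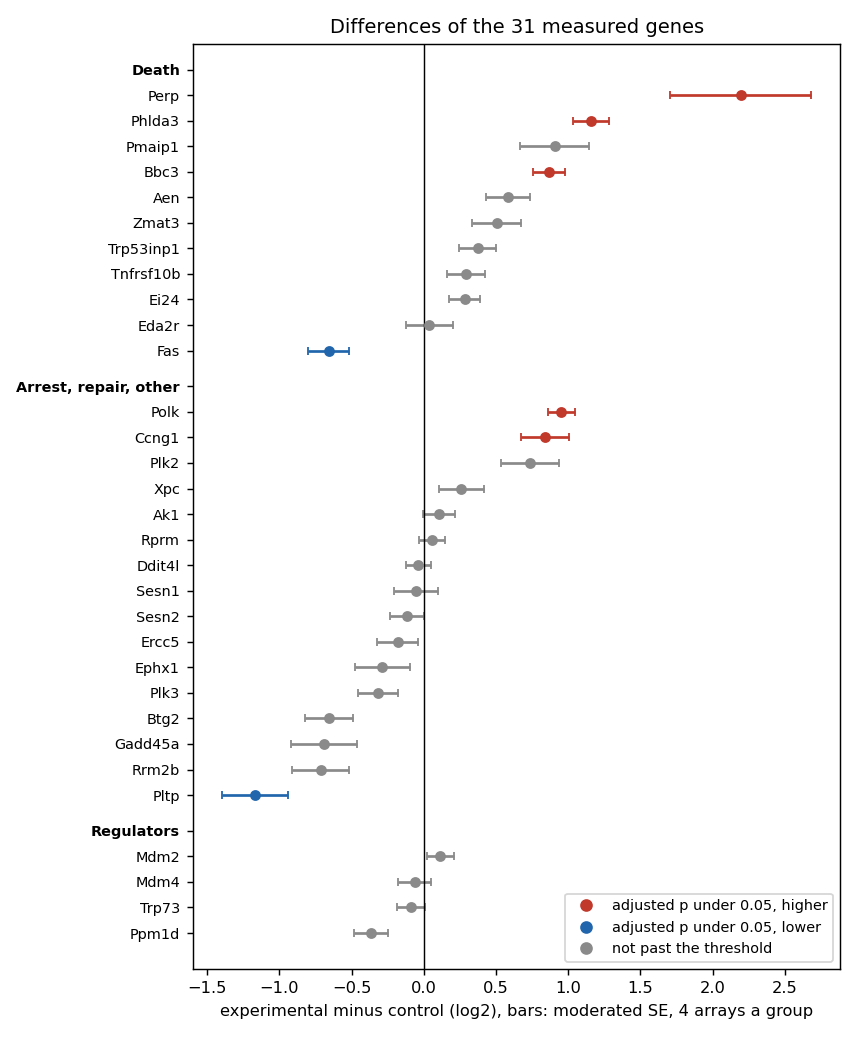
Difference of each measured gene between experimental and control samples (log2, horizontal axis), grouped by role, with moderated SE as bars and 4 arrays a group. All death genes except Fas lie right of 0, the arrest and repair genes spread to both sides, and the 4 regulators lie between -0.37 and 0.11.

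The regulators of p53 did not pass the test. Mdm2 read 10.02, 10.28, 10.01 and 10.03 in experimental samples, against 9.92, 9.95, 9.95 and 10.07 in controls. The groups overlapped, and the difference was 0.11 ± 0.09 (SE, adjusted p = 0.593). Mdm2 is itself a direct target of p53, and its other probe sets differed by -0.04 and 0.32, neither past the threshold. Mdm4 (-0.06 ± 0.11, adjusted p = 0.832), which binds p53 and blocks its activity, was close to even at its brightest probe set. Its 4 probe sets ran between -0.30 and 0.08.

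Ppm1d encodes the phosphatase Wip1, which switches off the kinases that activate p53. It had values of 8.02, 7.74, 7.61 and 7.81 in experimental samples and 8.39, 8.14, 7.99 and 8.14 in controls. The highest experimental value lay just above the lowest control value, and the difference of -0.37 ± 0.12 did not pass (adjusted p = 0.151). Trp73, a relative of p53, was dim, at 4.18 in experimental samples and 4.27 in controls (-0.09 ± 0.10, adjusted p = 0.708).

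Among the death genes, Phlda3, a p53 target that restrains the survival kinase Akt, had values of 6.83, 6.64, 6.96 and 6.81 in experimental samples and 5.46, 5.85, 5.84 and 5.46 in controls. Every experimental array was above every control by a wide gap. The difference was 1.16 ± 0.13 (SE, 2.23-fold, adjusted p = 0.00350). Bbc3, which encodes the BH3-only protein Puma, an activator of mitochondrial apoptosis, read 6.90, 7.00, 7.00 and 7.29 in experimental samples and 6.02, 6.16, 6.29 and 6.25 in controls. Again no arrays overlapped, and the rise was 0.87 ± 0.11 (1.83-fold, adjusted p = 0.00625). When each of the 8 arrays was left out in turn, Phlda3 and Bbc3 passed every time, with adjusted p = 0.00582 to 0.0160 for Phlda3 and 0.0112 to 0.0247 for Bbc3.

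Perp, a membrane protein of desmosomes that also takes part in p53-dependent death, had the largest difference of the 31 and also the widest spread. It read 6.43, 8.44, 6.98 and 7.44 in experimental samples and 5.98, 5.51, 5.11 and 3.91 in controls. The groups did not overlap, but replicate 1 of each came close to the other, while control replicate 4 and experimental replicate 2 stood at the far ends. The difference was 2.19 ± 0.49 (4.57-fold, adjusted p = 0.0489). Perp passed in none of the 8 fits that leave out 1 array, where its adjusted p was 0.0528 to 0.110 and its difference 1.79 to 2.49. Robust trended eBayes gave an adjusted p = 0.0606 and median centring 0.05005, neither under the threshold.

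Fas encodes a death receptor of lymphoid and myeloid cells and went against its group. It read 6.55, 6.92, 6.86 and 7.11 in experimental samples, against 7.54, 7.37, 7.36 and 7.79 in controls. All experimental arrays lay below all controls, and the difference was -0.66 ± 0.14 (63.4% of the control level, adjusted p = 0.0426). Of the fits that leave out 1 array, only the one without experimental replicate 4 kept the call (adjusted p = 0.0475 to 0.114 over the 8). The call was also lost with sex as a block (adjusted p = 0.0804), with median centring (0.0540) and with robust trended eBayes (0.0535).

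The remaining death genes did not pass the test. Pmaip1, which encodes the BH3-only protein Noxa, read 6.77, 6.83, 7.07 and 7.27 in experimental samples and 5.69, 6.84, 5.98 and 5.79 in controls. Control replicate 2 alone reached the experimental range. The difference was 0.91 ± 0.24 (adjusted p = 0.0837), and without control replicate 2 it was 1.16 (adjusted p = 0.0155). Aen, a nuclease induced by p53, read 7.65, 7.30, 8.11 and 7.68 in experimental samples and 7.09, 7.01, 7.10 and 7.20 in controls. Its groups did not overlap, with a difference of 0.58 ± 0.15 (adjusted p = 0.0839), and 3 of its 4 probe sets had no overlap between groups. Without experimental replicate 2, its lowest, Aen passed (adjusted p = 0.0247). In Pmaip1 and Aen the array left out was singled out by its value in that gene. The share of all genes called was 1.31% without control replicate 2 and 5.03% without experimental replicate 2. In the main fit it was 3.47%.

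Zmat3, an RNA-binding protein induced by p53, differed by 0.50 ± 0.17 (adjusted p = 0.157), and Trp53inp1, a cofactor of p53 in stress and autophagy, by 0.37 ± 0.13 (adjusted p = 0.163). With replicate number as a block, Zmat3 (adjusted p = 0.0263) and Aen (0.0465) passed and 7 of the 31 genes rose. Of all 18193 genes 574 rose with that block, beside 278 in the main fit. Trp53inp1 was the brightest of the death genes' probe sets. Its experimental arrays (10.98 to 11.29) lay above all controls (10.47 to 10.92). The dimmer probe set of Trp53inp1 overlapped between groups (0.19 ± 0.20, adjusted p = 0.699). Ei24, an endoplasmic reticulum protein induced by p53, differed by 0.28 ± 0.11 (adjusted p = 0.208). The receptor gene Tnfrsf10b (0.29 ± 0.13, adjusted p = 0.301) and Eda2r (0.04 ± 0.16, adjusted p = 0.939) were dim, with Tnfrsf10b at 3.90 in experimental samples and 3.61 in controls and Eda2r at 2.64 in experimental samples and 2.60 in controls, where a change may not be measurable.

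**Figure D2:**
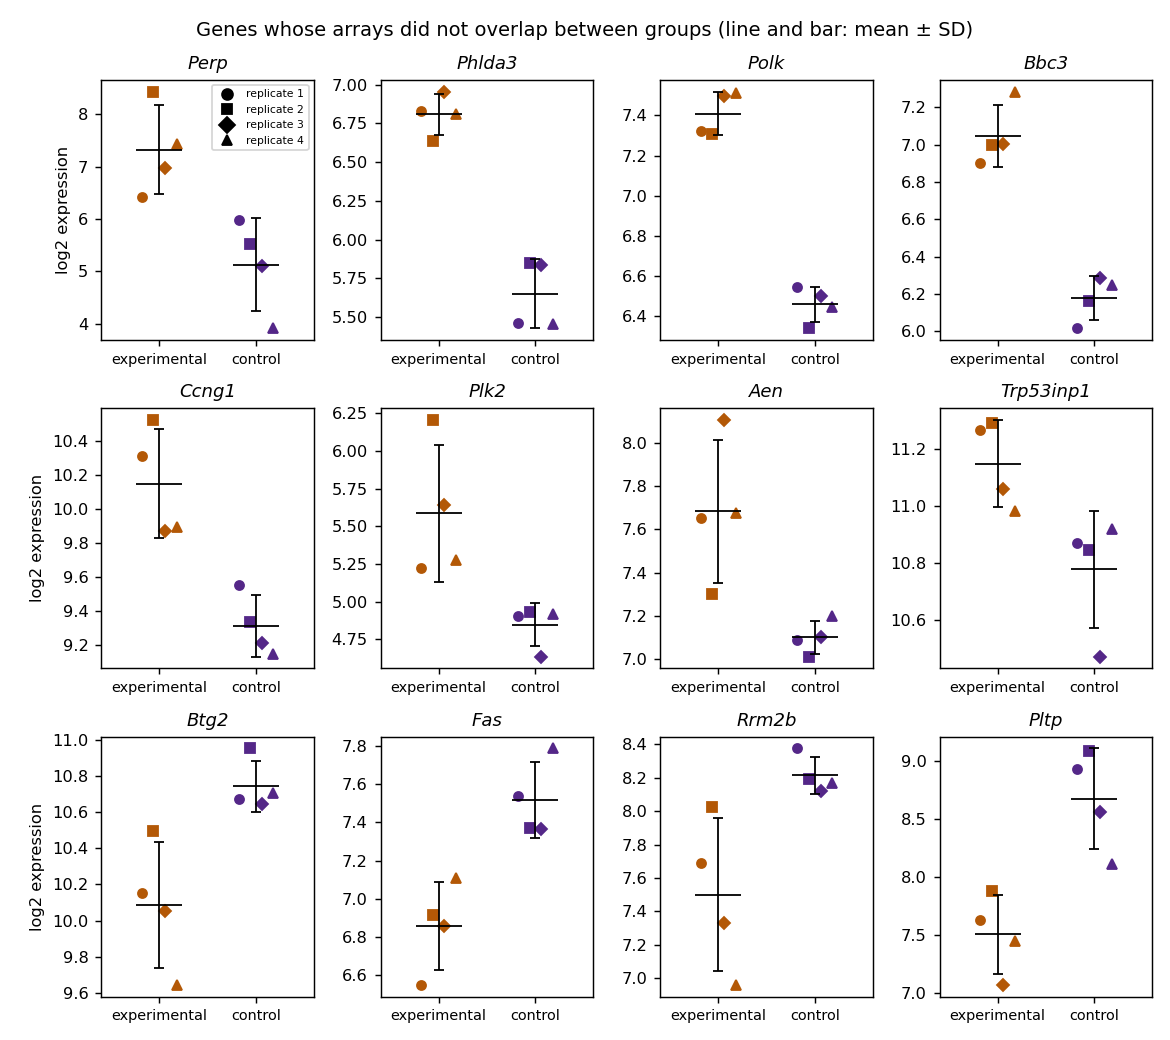
Log2 expression by array in experimental and control samples (left and right in each panel) for the 12 genes whose arrays did not overlap between groups; symbols give the replicate, and lines with bars the mean ± SD of 4 arrays. In 8 panels all experimental arrays lie on top, and in Btg2, Fas, Rrm2b and Pltp all of them lie below the controls.

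In 12 genes the arrays of the groups did not overlap, 8 with experimental arrays above and 4 with them below. Over all genes the groups did not overlap in 12.4%, with experimental arrays above in 5.62% and below in 6.79%.

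Among the genes of arrest and repair, Polk, a translesion DNA polymerase that copies past damaged bases, had the smallest adjusted p of the 31. It read 7.32, 7.31, 7.50 and 7.51 in experimental samples and 6.55, 6.34, 6.50 and 6.45 in controls. The arrays of each group lay close together, and the difference was 0.95 ± 0.09 (1.93-fold, adjusted p = 0.00245). Its dimmer probe set differed by 0.36 ± 0.13 and did not pass (adjusted p = 0.179). The call of the brightest held whichever of the 8 arrays was left out (adjusted p = 0.00469 to 0.0129).

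Ccng1 encodes cyclin G1, a p53 target that binds the phosphatase PP2A and feeds back on Mdm2, and its promoter window holds the closest match among the sequences shown. It had values of 10.31, 10.53, 9.87 and 9.89 in experimental samples and 9.55, 9.33, 9.21 and 9.14 in controls. The groups did not overlap, replicates 1 and 2 of the experimental group were the highest, and the difference was 0.84 ± 0.16 (1.79-fold, adjusted p = 0.0308). All 3 of its probe sets rose, by 0.79, 0.84 and 0.92. The brightest passed only without experimental replicate 2, 3 or 4 among the fits that leave out 1 array (adjusted p = 0.0308 to 0.0930).

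Plk2, a polo-like kinase induced by p53, read 5.22, 6.21, 5.64 and 5.28 in experimental samples, against 4.90, 4.93, 4.64 and 4.92 in controls. Its level was near the array medians in both groups, the arrays did not overlap, and the difference of 0.74 ± 0.20 did not pass (adjusted p = 0.0941). The related Plk3 lay the other way (-0.31 ± 0.14, adjusted p = 0.289). Xpc, which recognises bulky DNA lesions in nucleotide excision repair, differed by 0.26 ± 0.16 (adjusted p = 0.443), and the excision nuclease gene Ercc5 by -0.18 ± 0.14 (adjusted p = 0.572). The sestrin genes Sesn1 (-0.05 ± 0.15, adjusted p = 0.902) and Sesn2 (-0.12 ± 0.12, adjusted p = 0.676), which damp mTORC1 signalling, overlapped between groups at their brightest probe sets. The other Sesn2 probe set lay the other way without overlap and did not pass (0.17 ± 0.09, adjusted p = 0.370).

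Gadd45a, Btg2 and Rrm2b, classical genes of growth arrest and nucleotide supply, had lower means in the experimental samples without passing the test. Btg2, an antiproliferative factor, read 10.15, 10.49, 10.06 and 9.64 in experimental samples and 10.67, 10.95, 10.65 and 10.71 in controls, a difference of -0.66 ± 0.17 (adjusted p = 0.0754). Rrm2b, the p53-inducible subunit of ribonucleotide reductase, read 7.69, 8.03, 7.33 and 6.96 in experimental samples and 8.38, 8.19, 8.12 and 8.17 in controls (-0.71 ± 0.20, adjusted p = 0.102). Neither gene's groups overlapped. At its second brightest probe set Rrm2b fell past the threshold (-0.91 ± 0.16, adjusted p = 0.0229), and all 4 of its probe sets had differences below 0. Gadd45a, a stress protein that slows the G2/M transition, read 8.32, 8.90, 7.92 and 7.76 in experimental samples and 8.76, 9.04, 8.69 and 9.18 in controls (-0.69 ± 0.23, adjusted p = 0.159).

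In these 3 genes experimental replicate 2 was the array nearest the controls. Without it all 3 passed, with differences of -0.79 for Btg2 (adjusted p = 0.0241), -0.89 for Rrm2b (0.0251) and -0.92 for Gadd45a (0.0248). The array was singled out by its values in these same genes. Without it 5.03% of all genes were called, beside 3.47% in the main fit. With the replicate block Btg2 (adjusted p = 0.0277) and Rrm2b (0.0483) passed as well, where 6.18% of all genes were called. Experimental replicate 2 also had the lowest summed monocyte and macrophage markers of the 8 arrays (12.26, against 13.10 to 13.77 in the other experimental arrays and 13.26 to 13.50 in controls), the lowest beta-actin ratio of its group (0.34) and, by Xist and Eif2s3y, was the single male among the experimental samples. Among the controls, replicates 1 and 3 read as male and replicates 2 and 4 as female, so sex was not balanced between the groups. The part of the monocyte markers, the actin ratio and sex in the values of the 3 genes was not tested.

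Of the genes with metabolic roles, Pltp, which moves phospholipids between lipoproteins and is made by macrophages, read 7.63, 7.88, 7.07 and 7.45 in experimental samples and 8.93, 9.09, 8.56 and 8.11 in controls. Every experimental array was below every control, and the difference was -1.17 ± 0.23 (44.5% of the control level, adjusted p = 0.0318). Its other probe set fell too (-1.58 ± 0.34, adjusted p = 0.0437). Of the 8 fits with 1 array left out Pltp kept its call in 2, those that dropped control replicate 4 and experimental replicate 2 (adjusted p = 0.0240 to 0.0951), and it did not pass with sex as a block (adjusted p = 0.0618). The adenylate kinase gene Ak1 (0.10 ± 0.11, adjusted p = 0.694) and the epoxide hydrolase gene Ephx1 (-0.29 ± 0.19, adjusted p = 0.492) did not pass. Rprm, an inhibitor of the G2/M transition (3.03 in experimental samples and 2.98 in controls), and Ddit4l, an inhibitor of mTORC1 (3.69 in experimental samples and 3.72 in controls), were dim in both groups and did not pass.

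Across all probe sets of the 31 genes, the 29 beside the brightest gave 2 higher calls (both Ccng1) and 2 lower ones (Pltp and Rrm2b), where 2.58% of all probe sets were called.

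The sort leaves room for other cells, and markers of some moved with the groups. Of 14 measured B cell markers 8 fell and none rose, with a summed level of 10.85 to 11.35 in experimental arrays and 12.05 to 12.69 in controls. Of 6 megakaryocyte markers 3 fell (8.58 to 8.77 in experimental arrays and 9.25 to 9.90 in controls), and of 8 dendritic cell markers 3 fell (8.86 to 10.11 in experimental arrays and 10.06 to 10.31 in controls). None of 8 monocyte and macrophage markers or 8 erythroid markers passed. Of 9 T and NK cell markers Il7r fell and no other passed, and of 13 granulocyte markers Csf3r fell and no other passed. No marker reads 0 on a log2 array, and every B cell marker was above the array median in at least 1 group.

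The B cell and megakaryocyte levels separate the groups as the 12 genes without overlap do. Of these, 8 had experimental arrays above and 4 (Fas, Pltp, Btg2 and Rrm2b) had them below. An RNA integrity measure, the 3′ over 5′ probe ratio of beta-actin, also separated the groups (log2 ratio 0.34 to 0.54 in experimental arrays, against 0.27 to 0.32 in controls, exact permutation p = 0.0286, two-sided, the smallest that 4 against 4 arrays allow). The same ratio for Gapdh overlapped, at -0.16 to 0.03 in experimental arrays and -0.14 to -0.09 in controls (exact permutation p = 0.743, two-sided). The part of the marker levels and of these ratios in the differences of the 31 genes was not tested. In bulk RNA, fewer cells of a type and less RNA per cell cannot be told apart.

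**Figure D3:**
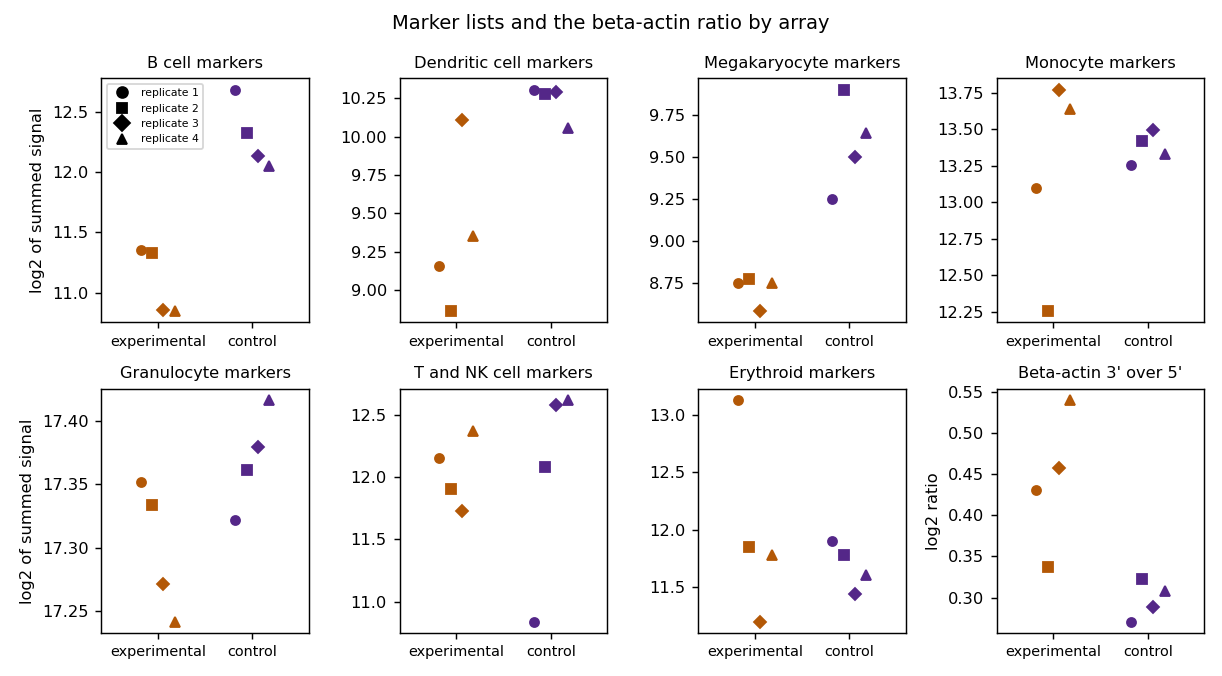
Log2 of the summed signal of 7 marker lists and the log2 3′ over 5′ probe ratio of beta-actin in each array, experimental left and control right, with symbols for the replicate. The B cell and megakaryocyte lists and the actin ratio do not overlap between groups, and the dendritic cell, monocyte, granulocyte, T and NK cell and erythroid lists do.

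The sample codes in the labels are of a digit-then-letter style for replicates 1 and 2 of each group and of a letter-then-digit style for replicates 3 and 4, so the comparison was also made within each style. All 7 called genes kept their direction in both. Their groups did not overlap over all arrays, so no other direction was possible. Polk differed by 0.87 within replicates 1 and 2 and 1.03 within replicates 3 and 4, Phlda3 by 1.08 and 1.24, Bbc3 by 0.86 and 0.88, Ccng1 by 0.98 and 0.70, and Perp by 1.69 and 2.70. Fas differed by -0.72 and -0.59, and Pltp by -1.25 and -1.08. Of the 31 genes 25 had 1 sign in both styles (80.6%), beside 62.0% of all genes. Any gene without overlap between groups has 1 sign in both styles by necessity. Of the 31 genes 8 lay wholly above and 4 wholly below, while 12.4% of all genes had no overlap. The shares are therefore a description and no test of agreement between styles. Gadd45a (-0.29 and -1.09), Rrm2b (-0.43 and -1.001), Btg2 (-0.49 and -0.83) and Pmaip1 (0.53 and 1.28) had the smaller difference within replicates 1 and 2, and Tnfrsf10b (0.61 and -0.028) within replicates 3 and 4. These contrasts between the styles were not tested.

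**Figure D4:**
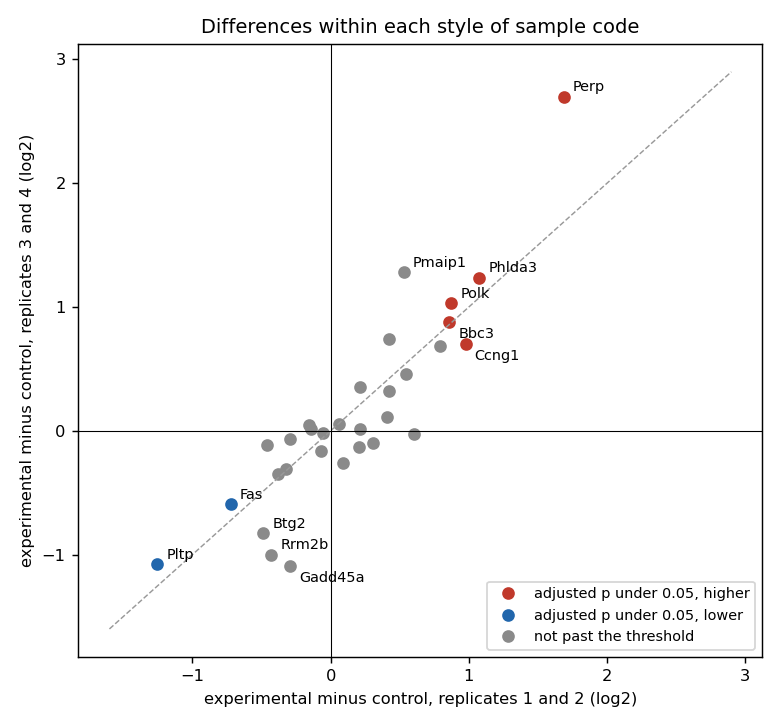
Differences of the 31 genes, experimental minus control (log2), within replicates 1 and 2 (horizontal) and within replicates 3 and 4 (vertical), 2 arrays a group in each; the dashed line marks equal differences. The called genes lie in the upper right or lower left, and Perp, Gadd45a and Pmaip1 lie farthest from the line, each with the larger difference within replicates 3 and 4.

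A wider set of the pathway was counted beside the 31. It held 20 genes upstream of p53 or acting on it and 31 further targets, of which 28 were measured. Of the upstream genes 1 fell and none rose, with a median of -0.07. That is 5% called, close to the 3.47% of all genes. Rchy1, a ubiquitin ligase for p53 also known as Pirh2, read 9.80, 9.89, 9.63 and 9.68 in experimental samples and 10.20, 10.46, 10.16 and 10.30 in controls (-0.53 ± 0.10, adjusted p = 0.0301). It kept its call in 2 of the 8 fits with 1 array left out, those that dropped control replicate 3 and experimental replicate 2 (adjusted p = 0.0259 to 0.0912). Trp53bp1, which binds p53 and marks DNA breaks, lay at -0.45 ± 0.11 at its brightest probe set and did not pass (adjusted p = 0.0588). It passed after quantile normalization (adjusted p = 0.0459), when code style was blocked (0.0374), with filters on the mean (0.0462 and 0.0486) and with array weights (0.0488). The most variable of its 6 probe sets, a dim one, lay the other way at 0.36 (adjusted p = 0.447).

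Of the 28 further targets 4 rose and 1 fell (17.9% called, beside 3.47% of all genes), with a median of 0.12. Cdkn1a, the best known arrest gene under p53, read 9.13, 9.72, 9.85 and 9.77 in experimental samples and 7.52, 6.99, 7.52 and 7.43 in controls (2.25 ± 0.18, adjusted p = 0.00113). The thiamine transporter gene Slc19a2 (0.95 ± 0.13, adjusted p = 0.00805), the lesion sensor gene Ddb2 (0.72 ± 0.14, adjusted p = 0.0274) and the microtubule gene Psrc1 (0.65 ± 0.12, adjusted p = 0.0229) rose as well. Thbs1, which encodes the matrix protein thrombospondin 1 of platelets and monocytes, read 8.15, 8.55, 8.74 and 7.74 in experimental samples and 10.64, 10.10, 10.48 and 9.96 in controls, a fall without overlap (SE 0.23, adjusted p = 0.00435). Whichever of the 8 arrays was left out, Cdkn1a, Slc19a2 and Thbs1 passed, while Ddb2 (adjusted p = 0.0323 to 0.0874) and Psrc1 (0.0201 to 0.0757) passed in 3 each. Dcxr (0.69, adjusted p = 0.0522), the peptide transporter gene Tap1 (0.87, 0.0552) and the ribosomal protein gene Rps27l (0.66, 0.0648) had no overlap between groups and did not pass. With the replicate block all 3 passed, Dcxr with an adjusted p = 0.0308, Tap1 with 0.0293 and Rps27l with 0.0437. That block called 6.18% of all genes, beside 3.47% in the main fit. Megakaryocyte markers fell in the same samples as Thbs1, and their part in it was not tested.

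**Figure D5:**
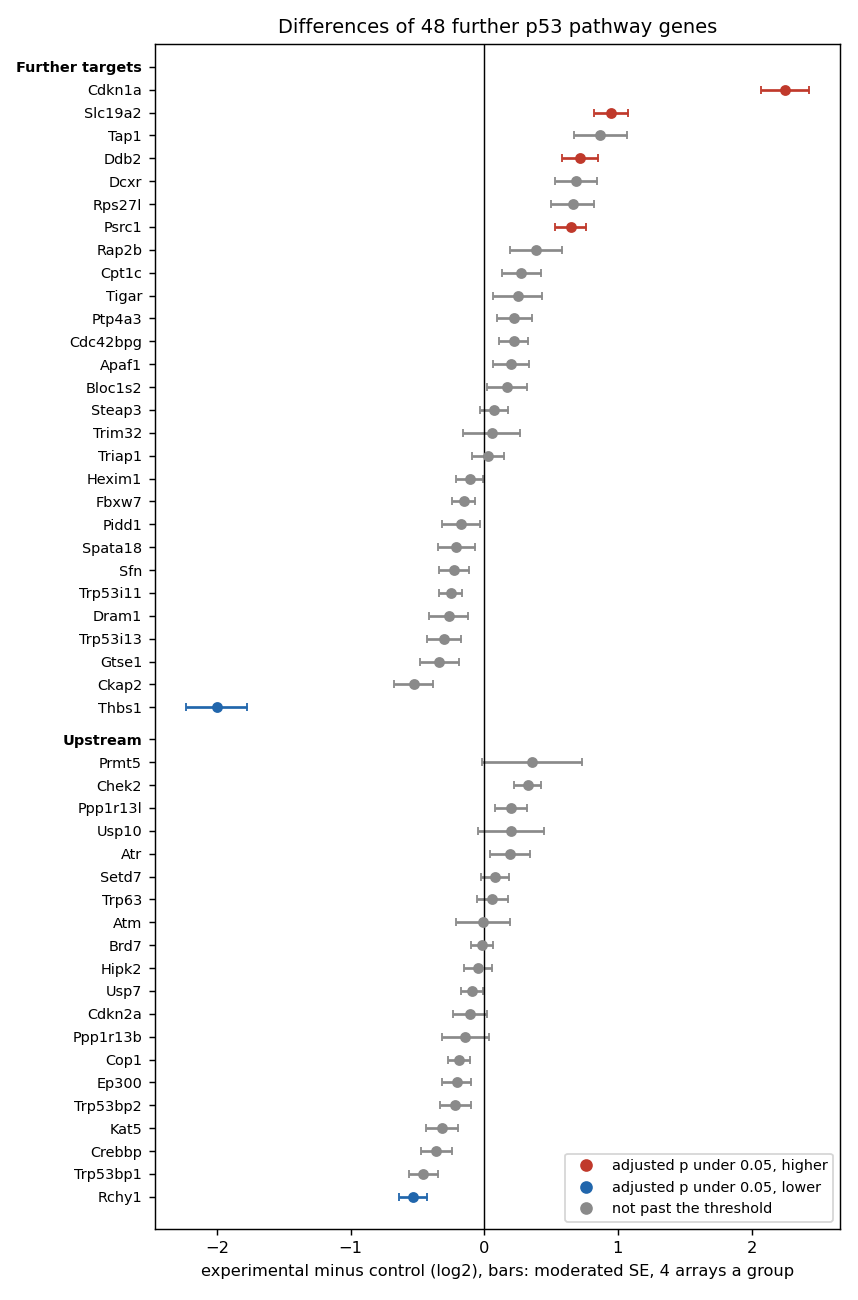
Differences of 28 further p53 targets and 20 upstream genes, experimental minus control (log2), with moderated SE as bars and 4 arrays a group. Cdkn1a, at 2.25, and Thbs1 lie at the right and left ends, and the upstream genes lie between -0.53 and 0.36.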

How the data were processed

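Each sample was hybridised as biotin-labelled cRNA, made from 2.5 µg of total RNA, to an Affymetrix mouse array. The deposited values are log2 expression per probe set; the submitters' processing notes name RMA, which corrects background, applies quantile normalization and summarises probes, with no version and no word on joint normalization in the sources used here. Of 45101 probe sets 64 controls were left out and 45037 tested; 34945 carried 1 symbol in the platform annotation. Differences were fitted by limma 3.58.1 under R 4.3.3 (functions lmFit and eBayes; group as the only term, Benjamini-Hochberg over all probe sets, threshold 0.05), with no filter on low values; 22 of the 31 measured genes had a mean of at least 6. The number of arrays limits the precision. The genes and lists were chosen with earlier results of these data known. All members are named; of the wider lists, the called genes and the 4 next by adjusted p. The fit was tested on simulated data. Same-numbered arrays deviated together from their group means (all 4 correlations between 0.20 and 0.26). Differently numbered arrays gave 0.14 to 0.26 within 1 style of sample code and -0.27 to -0.13 across styles. The ranges overlap within a style, so a pairing by number cannot be told apart from a shared style. The main fit held neither, and each served as a block in an alternative fit. Gene names follow the platform annotation, checked against RefSeq by gene identifier. Alternatives were the replicate number, code style or sex as a block, each style alone, median centring, quantile normalization, filters on the mean, robust trended eBayes, array weights, other choices of probe set, and each array left out.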

Additional observations from a re-analysis of the deposited data

Results flagged for a closer look

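In 4 of 62 groups of 4 arrays, 1 array stood far from the other 3 of its group by Dixon's ratio, and chance gives about 1 in 20. Mdm2 read 10.28 in experimental replicate 2, while the nearest array of its group read 10.03. It read 10.07 in control replicate 4, against 9.95 in the next control. Plk2 was lowest in control replicate 3, at 4.64 with the next at 4.90. Trp53inp1 was also lowest in control replicate 3, at 10.47 with the next at 10.85.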

How the results depend on the processing

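The main counts were 5 higher and 2 lower of the 31 genes, and 4 higher and 2 lower of the 48 wider pathway genes. Leaving out each array in turn gave 3 to 5 higher and 0 to 4 lower of the 31, and 2 to 5 higher and 1 to 2 lower of the 48. With the replicate number as a block, counts were 7 and 4 of the 31 and 7 and 3 of the 48. With code style as a block they were 7 and 4, and 7 and 4. Within replicates 1 and 2 they were 0 and 0, and 0 and 1; within replicates 3 and 4 they were 4 and 0, and 1 and 0, with 2 arrays a group. Sex as a block gave 0 lower of the 31 and 1 lower of the 48. Median centring and robust trended eBayes each gave 1 lower of the 31, and array weights 4. Of the 48, array weights and a mean of at least 6 each gave 7 higher, and the most variable probe set gave 4 lower. The share of all genes called moved as well. It was 3.47% in the main fit, 6.18% with the replicate block, 7.05% with the code style block and 2.03% with sex. Leaving out 1 array gave 1.31% to 5.03%. Within replicates 1 and 2 it was 0.418%, and within replicates 3 and 4 it was 1.43%. Median centring gave 3.28%, robust trended eBayes 3.14% and array weights 4.36%. A mean of at least 6 gave 7.28% and the most variable probe set 3.75%. The 7 called genes kept their direction in 147 of 147 values, and 43 of these no longer passed the threshold. None of the 7 overlapped between groups, so fits on fewer arrays could not have changed the direction. Some uncalled genes changed sign, among them Trp53bp1 (main difference -0.45) and Tnfrsf10b (0.29). Within replicates 1 and 2 Trp73 lay at 0.087. Within replicates 3 and 4 Mdm4 lay at 0.018, Sesn1 at 0.046, Ak1 at -0.10, Tnfrsf10b at -0.028 and Eda2r at -0.13. With the most variable probe set Mdm4 lay at 0.082, Ddit4l at 0.11 and Trp53bp1 at 0.36. With the mean of probe sets Sesn2 lay at 0.028 and Ddit4l at 0.076. With 1 array left out Sesn1 lay between -0.17 and 0.055 and Eda2r between -0.040 and 0.22. The causes were not tested. Of the 31 genes 9 had a mean under 6, where changes are harder to measure.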
